A study of Mus musculus with 16 samples.

Results

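The 6 podocyte marker genes Nphs1, Podxl, Wt1, Synpo, Cdkn1c and Plce1 were taken by symbol from a table of 13430 genes measured in mouse kidney, where each symbol matched 1 row. They were read in 4 groups of 4 mice, with 1 RNA library per mouse. The groups were IRR(-/-) mice that drank bicarbonate, IRR(-/-) mice that drank water, wild-type mice that drank bicarbonate and wild-type mice that drank water. IRR(-/-) mice carry a knockout of Insrr, which encodes an alkali-sensing receptor of the insulin receptor family, and are called the knockout below. All mice were female, on the C57BL/6 strain and aged 2 to 3 months. The bicarbonate drink held 250 mM NaHCO3 at pH 8.5 and was given for 7 days, and all mice, controls included, fasted for 12 h before the kidney was taken. The RNA came from a 3 mm slice across the middle of the whole kidney, so podocytes were a small part of each sample. The labels do not give the part of Insrr that was removed, or say whether mice of a group were litter mates.

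Podocytes are the epithelial cells that wrap the capillaries of the glomerulus, the filter at the head of each nephron. Their interlocking foot processes are bridged by the slit diaphragm, carry a negatively charged coat, are held in shape by an actin skeleton and stand on a basement membrane shared with the endothelium. Wt1 encodes the transcription factor that keeps podocytes differentiated, and Cdkn1c encodes p57, an inhibitor of cyclin-dependent kinases that marks cells that have left the cell cycle. Nphs1 encodes nephrin, the adhesion protein that spans the slit, and Podxl encodes podocalyxin, the sialoprotein that gives the cell its negative charge. Synpo encodes synaptopodin, which binds actin in the foot processes, and Plce1 encodes phospholipase C epsilon, a signalling enzyme whose loss causes nephrotic syndrome in humans.

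The largest difference among the 6 genes, described with its values further on, was that of Nphs1, and its promoter window is shown for that reason beside that of Plce1, the other marker with a window in the RefSeq table for GRCm38.p6 whose sequence could be used. Each window runs from 250 bases before to 50 bases after the RefSeq start, on the plus strand, at chr7:30459808-30460107 for Nphs1 and chr19:38523947-38524246 for Plce1. In the GENCODE M21 annotation of GRCm38, Nphs1 begins at 30458315 and Plce1 at 38481109 on the same strand. Both windows therefore lie inside the genes as annotated there, and sequence at the outermost starts was not examined. Capitals mark the longest run made only of A and G.
Nphs1: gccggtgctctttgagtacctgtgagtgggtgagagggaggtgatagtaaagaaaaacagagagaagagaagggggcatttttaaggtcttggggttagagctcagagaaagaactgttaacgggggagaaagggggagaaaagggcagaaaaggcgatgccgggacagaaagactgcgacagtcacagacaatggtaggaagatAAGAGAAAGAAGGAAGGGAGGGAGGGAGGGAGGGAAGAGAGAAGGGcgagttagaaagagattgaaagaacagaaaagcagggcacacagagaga
Plce1: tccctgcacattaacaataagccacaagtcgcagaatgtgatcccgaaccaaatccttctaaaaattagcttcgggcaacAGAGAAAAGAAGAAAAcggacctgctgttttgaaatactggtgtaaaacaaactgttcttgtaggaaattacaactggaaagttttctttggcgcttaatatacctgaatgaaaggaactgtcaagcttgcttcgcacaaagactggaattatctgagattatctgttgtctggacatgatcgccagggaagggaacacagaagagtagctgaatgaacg

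The Nphs1 window held 77.7% A or G on the printed strand, more than 99.96% of the 32851 windows of that length, whose median was 50.3%. Its longest run of A and G was 46 bases and ended at the RefSeq start, and 0.167% of all windows held a run at least as long. The Plce1 window held 56.7% A or G with a longest run of 16 bases. Neither window held the letters GCGTGGG, a core bound by WT1 and EGR zinc fingers, on either strand, against 5.04% of all windows. The E-box letters CANNTG, which basic helix-loop-helix factors bind, were found once in Plce1 and not in Nphs1, against 72.3% of all windows. TAATTA, a homeodomain core, was in neither, against 5.29% of all windows. These matches describe letters only, and no factor binding was measured.

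In the GENCODE M21 annotation of GRCm38, Nphs1 (ENSMUSG00000006649) lies on chromosome 7 from 30458315 to 30487223, Cdkn1c on chromosome 7 from 143458339 to 143461050, Podxl (ENSMUSG00000025608) on chromosome 6 from 31519488 to 31563981, Wt1 on chromosome 2 from 105126529 to 105173616 and Plce1 on chromosome 19 from 38481109 to 38785030. The genes Nphs1, Cdkn1c and Plce1 overlap genes annotated on the opposite strand, such as Nphs1os, which were not listed in the table. No source used here says whether counting used strand, so reads of such pairs cannot be told apart.

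The values were RPKM, that is reads scaled for gene length and for the size of the library, and the depth of each library is unknown. Insrr itself was at 3.31 to 4.11 RPKM in the 8 knockout libraries and 4.20 to 6.73 RPKM in the 8 wild-type libraries, with no overlap. The 13 mitochondrially encoded genes took 82.6% to 84.9% of the summed RPKM in the knockout libraries and 69.6% to 74.2% in the wild-type libraries, and the part of this in the results was not tested. Median RPKM lay between 8.44 and 8.92 in all 16 libraries. On the second principal component of all genes tested, replicate 3 of wild type on bicarbonate lay at 50.8 and the other libraries between -22.1 and 21.8.

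All 6 markers were above 0 in each of the 16 libraries and passed the filter for testing, 0.5 RPKM or more in 4 or more libraries. This filter passed 12943 of 13430 genes, so it shows that the markers were detected and does not check from which cells their RNA came. The podocyte genes Tcf21 and Ptpro were detected likewise. Tcf21, a transcription factor gene, lay between 5.64 and 11.3 RPKM. Ptpro, a receptor phosphatase of the foot process, lay between 3.13 and 4.76 RPKM.

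Podxl was the highest marker and Plce1 the lowest. Over all 16 libraries the mean levels were 60.7 ± 4.795 RPKM for Podxl, 12.0 ± 0.793 for Synpo, 9.99 ± 1.46 for Cdkn1c, 8.15 ± 0.811 for Wt1, 7.80 ± 2.06 for Nphs1 and 1.81 ± 0.380 for Plce1 (SD, n = 16). Podxl stood above Synpo and Synpo above Cdkn1c within each of the 16 libraries, although the ranges of the last pair overlapped. Cdkn1c exceeded Wt1 in 15 of 16 libraries. Wt1 was above its neighbour Nphs1 in 7 of 16 libraries, and their order differed by group. Nphs1 was below Wt1 in all 4 knockout libraries on bicarbonate and above it in all 4 wild-type libraries on bicarbonate. Each Nphs1 value, the lowest at 4.70 RPKM, was above each Plce1 value, the highest at 2.73 RPKM. Relative spread differed among the genes, with a coefficient of variation over the 16 libraries of 26.4% for Nphs1 at one end and 7.90% for Podxl and 6.63% for Synpo at the other. Plce1 had the second widest spread. The median over all genes tested was 18.4%.

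**Figure D1:**
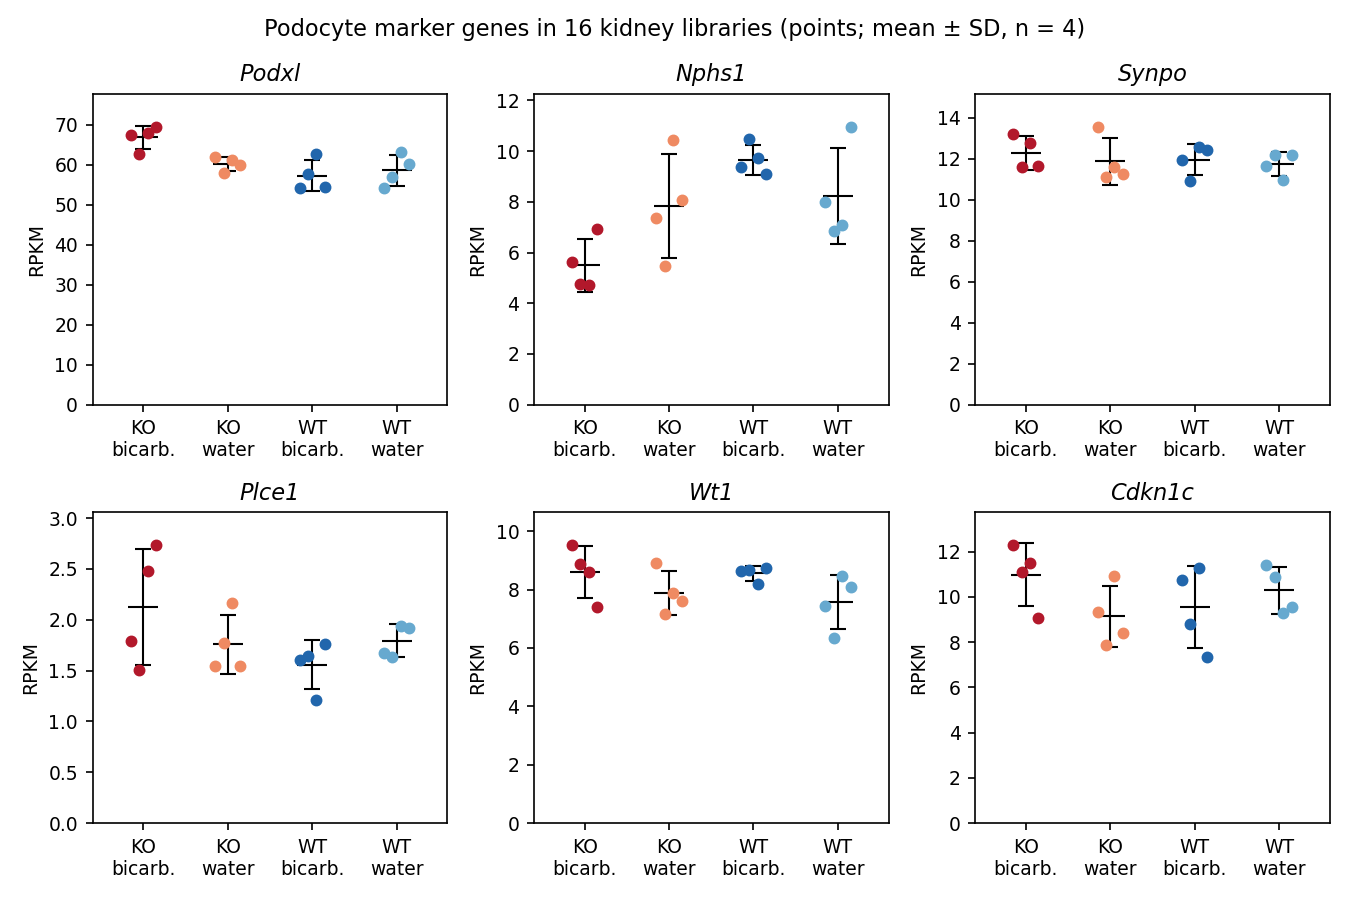
RPKM of the 6 podocyte markers (vertical axes, linear, from 0) in the 4 groups, knockout (KO) and wild type (WT) on bicarbonate and on water, with 1 point per mouse and the mean ± SD as black bars (n = 4). Nphs1 lies between 4.70 and 6.91 RPKM in the knockout on bicarbonate, below all wild-type libraries on bicarbonate, and Podxl lies above them, while the groups overlap for the other 4 genes.

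The genotypes on bicarbonate were compared first, to ask how podocyte genes stood in alkali-loaded kidneys of knockout and wild-type mice. Nephrin transcripts were lower in the knockout and podocalyxin transcripts higher. Nphs1 was at 5.62, 4.75, 4.70 and 6.91 RPKM in knockout mice on bicarbonate, against 9.37, 10.5, 9.72 and 9.08 RPKM in wild-type mice on bicarbonate. All 4 knockout values were below all 4 wild-type values, with no overlap. The mean was 5.50 ± 1.03 RPKM in the knockout and 9.66 ± 0.597 RPKM in wild type (SD, n = 4 each). The log2 difference was -0.82 ± 0.19 (SE), or 0.567 times the wild-type level on that scale, with a limma adjusted p of 0.00695 over all genes tested. In bulk kidney RNA, fewer podocytes and less RNA per podocyte cannot be told apart.

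Podxl was at 67.3, 62.7, 67.9 and 69.4 RPKM in knockout mice on bicarbonate, against 54.2, 57.7, 62.6 and 54.4 RPKM in wild-type mice on bicarbonate. The groups did not overlap, but the lowest knockout value and the highest wild-type value, that of replicate 3, were nearly the same. The log2 difference was 0.22 ± 0.06 (limma adjusted p = 0.0226), from means of 66.8 ± 2.89 RPKM in the knockout and 57.2 ± 3.93 RPKM in wild type. The call was lost without knockout bicarbonate replicates 3 (0.22, adjusted p = 0.0579) and 4 (0.21, adjusted p = 0.0672) and when wild-type replicate 1 (0.20, adjusted p = 0.0679) or 4 (0.20, adjusted p = 0.0613) on bicarbonate was left out. It was also lost with the trend on transcript length and GC content removed (0.16, adjusted p = 0.0910) and with only the groups compared (0.22, adjusted p = 0.0569). The Nphs1 difference was called in all 27 alternatives, with log2 differences from -0.93 to -0.73 and adjusted p from 0.00331 to 0.0248. Both genes were called when wild-type bicarbonate replicate 3 was left out.

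The other 4 markers were not called between the genotypes on bicarbonate. Plce1 was at 1.79, 1.504, 2.48 and 2.73 RPKM in the knockout, against 1.60, 1.64, 1.21 and 1.77 RPKM in wild type. Its groups overlapped, at a log2 difference of 0.40 ± 0.19 (limma adjusted p = 0.157). Cdkn1c was at 12.3, 11.1, 11.5 and 9.05 RPKM in the knockout, against 10.7, 8.82, 11.3 and 7.35 RPKM in wild type (log2 difference 0.21 ± 0.14, adjusted p = 0.341). The ranges overlapped widely. Synpo averaged 12.3 ± 0.830 RPKM in the knockout and 12.0 ± 0.759 RPKM in wild type, and Wt1 averaged 8.59 ± 0.889 RPKM in the knockout and 8.55 ± 0.254 RPKM in wild type (SD, n = 4 each). Their log2 differences were 0.04 ± 0.08 and 0.0015 ± 0.10, with adjusted p of 0.784 and 0.994. So 1 of the 6 was higher, 1 lower and 4 did not pass, where 18.4% of all genes tested were called, 9.03% higher and 9.36% lower. An unadjusted p under 0.05 was found for 3 of 6, against 31.4% of all genes. The groups did not overlap for 2 of 6, against 22.8% of all genes, and the counts over 6 genes were not tested against these shares.

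**Figure D2:**
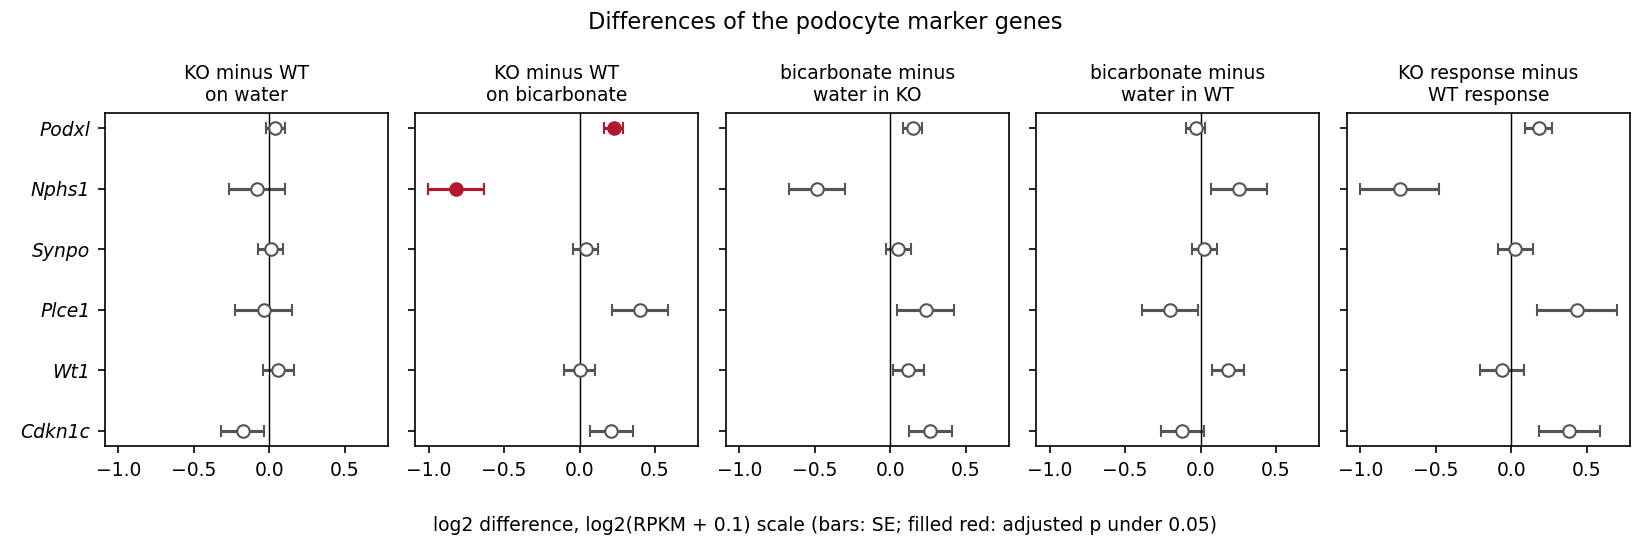
Log2 differences (horizontal axes, on the log2(RPKM + 0.1) scale) of the 6 markers in the 5 comparisons, with SE bars. Filled red points are past an adjusted p of 0.05, which holds for Nphs1 at -0.82 and Podxl at 0.22 between the genotypes on bicarbonate.

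On water none of the 6 markers was called between the genotypes, by limma, and none had an unadjusted p under 0.05. Over all genes tested 21.9% were called in this comparison, 10.1% higher and 11.8% lower, and 34.3% had an unadjusted p under 0.05. Nphs1 was at 7.37, 5.46, 10.4 and 8.07 RPKM in the knockout, against 7.98, 6.85, 7.08 and 10.96 RPKM in wild type. The values of both genotypes were interleaved, and the log2 difference was -0.08 ± 0.19 (adjusted p = 0.805). Podxl was at 61.9, 57.9, 61.1 and 59.8 RPKM in the knockout, against 54.1, 56.8, 63.1 and 60.1 RPKM in wild type (log2 difference 0.04 ± 0.06, adjusted p = 0.692). All 4 knockout values lay within the wild-type range. Cdkn1c had the lowest p of the 6 on water, with a log2 difference of -0.18 ± 0.14 (adjusted p = 0.423), from 9.13 ± 1.33 RPKM in the knockout and 10.3 ± 1.02 RPKM in wild type (SD, n = 4 each). Wt1, Synpo and Plce1 had log2 differences of 0.06 ± 0.10, 0.01 ± 0.08 and -0.04 ± 0.19. The water groups are separate mice from the bicarbonate groups, so the group means of the 2 comparisons share no libraries. All 16 libraries were in 1 fit, however, so both comparisons share the estimate of spread and their p are not independent.

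The response to bicarbonate was then read within each genotype. In the knockout no marker passed by limma, with 2 of 6 at an unadjusted p under 0.05 (7.99% of all genes tested), and 0.0232% of all genes were called. Nphs1 averaged 5.50 ± 1.03 RPKM on bicarbonate and 7.83 ± 2.05 RPKM on water (SD, n = 4 each). Bicarbonate replicates 1 and 4 lay within the range of the water group and the other 2 below it, and the log2 difference was -0.48 ± 0.19 (unadjusted p = 0.0201, limma adjusted p = 0.521). Podxl averaged 66.8 ± 2.89 RPKM on bicarbonate and 60.2 ± 1.75 RPKM on water. Its groups did not overlap, as for 5.66% of all genes, but the log2 difference of 0.15 ± 0.06 did not pass (unadjusted p = 0.0307, adjusted p = 0.575). Cdkn1c was at 10.98 ± 1.38 RPKM on bicarbonate and 9.13 ± 1.33 RPKM on water (log2 difference 0.27 ± 0.14, adjusted p = 0.684). Plce1, Wt1 and Synpo had log2 differences of 0.24 ± 0.19, 0.12 ± 0.10 and 0.05 ± 0.08 with adjusted p from 0.805 to 0.917.

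In wild type no marker passed by limma and none had an unadjusted p under 0.05, while 0.139% of all genes tested were called and 12% had such a p. Nphs1 averaged 9.66 ± 0.597 RPKM on bicarbonate and 8.22 ± 1.89 RPKM on water (SD, n = 4 each), with a log2 difference of 0.25 ± 0.19 (adjusted p = 0.640). The 4 bicarbonate values lay within the range of the water group, whose replicate 4 was highest at 10.96 RPKM. Wt1 was at 8.63, 8.68, 8.18 and 8.73 RPKM on bicarbonate, against 7.42, 6.33, 8.45 and 8.09 RPKM on water. The bicarbonate values were close together and overlapped the upper part of the water range (log2 difference 0.18 ± 0.10, adjusted p = 0.521). Plce1, Cdkn1c, Podxl and Synpo had log2 differences of -0.20 ± 0.19, -0.12 ± 0.14, -0.03 ± 0.06 and 0.02 ± 0.08 with adjusted p from 0.722 to 0.942.

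Whether the response differed between the genotypes was tested as the knockout response minus the wild-type response. For Nphs1 it was -0.74 ± 0.26 on the log2 scale, with a response of -0.48 in the knockout and 0.25 in wild type, but it did not pass after adjustment (unadjusted p = 0.0133, limma adjusted p = 0.522). Over its alternatives this value lay between -0.90 and -0.59, with adjusted p from 0.333 to 0.717. The values were 0.44 ± 0.26 for Plce1, 0.39 ± 0.20 for Cdkn1c, 0.18 ± 0.09 for Podxl, 0.03 ± 0.12 for Synpo and -0.06 ± 0.15 for Wt1. No marker passed, 1 of 6 had an unadjusted p under 0.05 (8.19% of all genes tested), and 0.0155% of all genes were called. The Nphs1 call between genotypes on bicarbonate is therefore not shown to differ from its uncalled difference on water.

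The ratio of both called transcripts within a library was computed after the values were seen and is given without a test. Nphs1 stood at 8.20 ± 1.31 RPKM per 100 RPKM of Podxl in the knockout on bicarbonate, 12.97 ± 3.19 in the knockout on water, 16.9 ± 1.09 in wild type on bicarbonate and 14.1 ± 3.15 in wild type on water (SD, n = 4 each). On bicarbonate the knockout ratios ran from 6.93 to 9.95 and the wild-type ratios from 15.5 to 18.1, with no overlap. This separation was fixed in advance, since all knockout Nphs1 values were lower and all knockout Podxl values higher on bicarbonate. The ratio therefore restates the differences of both genes and adds no separate result. Podxl is also made by endothelial cells.

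**Figure D3:**
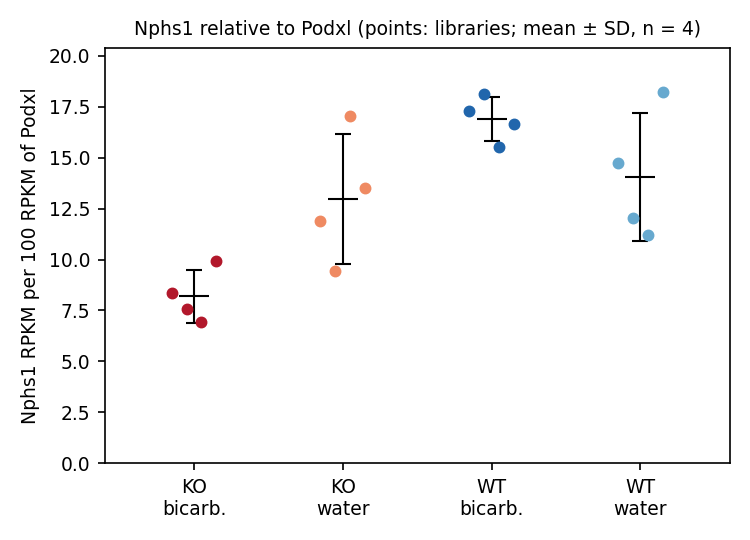
Nphs1 RPKM per 100 RPKM of Podxl (vertical axis) in each library, with 1 point per mouse and mean ± SD bars (n = 4), for knockout (KO) and wild type (WT) on each drink. On bicarbonate the knockout points, from 6.93 to 9.95 per 100 of Podxl, lie below all wild-type points, from 15.5 to 18.1. This follows from the values of both genes, neither of which overlapped between the genotypes on bicarbonate.

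Correlations between markers among mice of a group did not pass for any pair. Correlations were taken over the 16 libraries after the mean of each group was subtracted from the log2 values. The median Pearson r of the 15 pairs was 0.12, with 12 pairs positive. The highest was 0.37 for Nphs1 and Plce1 (permutation p = 0.199, Spearman rho = 0.24, permutation p = 0.406) and the lowest -0.38 for Cdkn1c and Plce1 (permutation p = 0.212, rho = -0.32, permutation p = 0.280). None of the 15 pairs had a p under 0.05, and the Benjamini-Hochberg adjusted p was 0.875 for both pairs named and 0.901 for their rho. Without the 2 libraries farthest from the median of the first gene, these r were 0.20 and -0.11. For Nphs1 and Podxl, r was 0.33 (permutation p = 0.199, adjusted p = 0.875), rho was 0.35 (permutation p = 0.212, adjusted p = 0.901), and r without those 2 libraries was 0.30. Within the genotypes this r was 0.63 over the 8 knockout libraries and 0.16 over the 8 wild-type libraries, and that of Cdkn1c and Plce1 was -0.12 in the knockout and -0.82 in wild type. Of the 5 pairs with Wt1, 4 had opposite signs in the genotypes, given here without a test. This was not particular to Wt1, since some pairs without it also differed in sign and others did not. Podxl and Plce1 were at 0.65 in the knockout and -0.26 in wild type, and Podxl and Synpo at 0.50 in the knockout and -0.13 in wild type. For Wt1 and Synpo r was 0.80 in the knockout and -0.46 in wild type, for Wt1 and Cdkn1c 0.74 in the knockout and -0.48 in wild type, and for Wt1 and Plce1 -0.58 in the knockout and 0.63 in wild type. Wt1 with Nphs1 was at -0.09 in the knockout and 0.40 in wild type, and Wt1 with Podxl was positive in both, at 0.01 in the knockout and 0.31 in wild type.

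**Figure D4:**
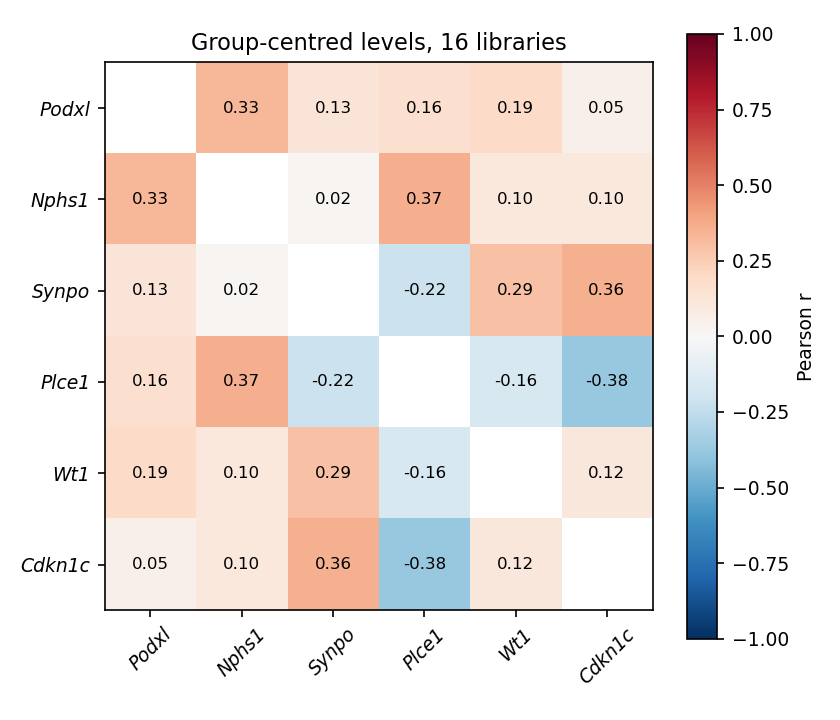
Pearson r (colour scale from -1 to 1) of each pair of the 6 markers over 16 libraries, on log2 values with group means subtracted. Values run from -0.38 for Cdkn1c and Plce1 to 0.37 for Nphs1 and Plce1, and no pair passed its permutation test.

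A joint pattern of the 6 markers, the mean of their centred and scaled log2 values, was set against all other genes tested as a description. The 10 genes most like it over the 16 libraries were Sbsn (r = 0.93), Mpp6 (0.88), Aspscr1 (0.84), Selenoh (0.84), Mapkapk5 (0.83), Ints1 (0.83), Brk1 (0.80), Src (0.80), Ccdc124 (0.79) and Tbca (0.79). None of these 10 genes is on the podocyte lists. Over all 12937 other genes tested r ran from -0.91 to 0.93, with a median of 0.01, so the 10 are the upper end of a wide range. Of the 60 genes tested on those lists, the GTPase inhibitor gene Arhgdia (r = 0.69, rank 62) and the formin gene Inf2 (r = 0.65, rank 99) were within the first 100 of 12937 genes. The lists as a whole did not follow the pattern. Their median r ran from -0.06 for basement membrane and adhesion genes to 0.08 for cytoskeletal genes, and the lowest gene, Itgb1, was at -0.43. The markers themselves had r between 0.26 for Plce1 and 0.65 for Nphs1 to this pattern, which they make up.

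Of 63 further podocyte and glomerular basement membrane genes in 5 lists, 60 were in the table and all 60 were tested. Between the genotypes on bicarbonate the knockout had 8 of them higher and 4 lower. That was 20% of the 60 against 18.4% of all genes tested, so their share was close to the background. Median log2 differences were 0.11 over the 60 and -0.02 over all genes. Many of the 60 are also made by tubule, endothelial or stromal cells.

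Of 14 slit diaphragm and membrane genes, 1 was higher on bicarbonate in the knockout and 13 did not pass. That gene was Clic5, a chloride channel family member that binds ezrin in foot processes, at 28.2 ± 2.20 RPKM in the knockout and 22.6 ± 1.98 RPKM in wild type (SD, n = 4 each, log2 difference 0.32 ± 0.08, limma adjusted p = 0.0121). Of 14 cytoskeletal genes, 4 were higher and 2 lower, where 9.03% of all genes tested were higher and 9.36% lower. Counts of single lists were not tested against these shares. Arhgap24, a Rac-inactivating protein, was at 95.0 ± 4.18 RPKM in the knockout and 71.4 ± 6.86 RPKM in wild type (log2 difference 0.42 ± 0.07, adjusted p = 0.00117). Slc9a3r2, a scaffold that ties podocalyxin to ezrin, was at 23.4 ± 2.86 RPKM in the knockout and 16.8 ± 1.14 RPKM in wild type (log2 difference 0.46 ± 0.11, adjusted p = 0.00767). Rhpn1, a GTPase-binding protein of the podocyte skeleton, was lower, at a log2 difference of -0.67 ± 0.18 (adjusted p = 0.0186). It lost its call without wild-type bicarbonate replicate 2 (-0.58, adjusted p = 0.0594) and without knockout bicarbonate replicates 3 (-0.61, adjusted p = 0.0555) and 4 (-0.63, adjusted p = 0.0515).

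Of 7 podocyte transcription factor genes, 1 was higher on bicarbonate in the knockout, where 9.03% of all genes tested were higher. Tcf21, a helix-loop-helix factor of podocytes and stromal cells, was at 10.2, 9.70, 9.91 and 11.3 RPKM in the knockout, against 5.64, 7.75, 6.23 and 5.95 RPKM in wild type. The groups did not overlap, as for 22.8% of all genes tested, and the log2 difference was 0.69 ± 0.15 (limma adjusted p = 0.00602). Of 13 basement membrane and adhesion genes, 2 were higher and 2 lower, against 9.03% and 9.36% of all genes tested. Npnt, the matrix protein nephronectin, which tubules also make, was at 104.9 ± 14.4 RPKM in the knockout and 52.7 ± 20.3 RPKM in wild type (log2 difference 1.10 ± 0.27, adjusted p = 0.0122), and was not called with only the groups compared (adjusted p = 0.0553). Itga3, the integrin chain that binds podocytes to laminin, was lower, at a log2 difference of -0.40 ± 0.11 (adjusted p = 0.0198). It was not called without wild-type bicarbonate replicates 1 (-0.35, adjusted p = 0.0613) and 4 (-0.36, adjusted p = 0.0570) or knockout bicarbonate replicates 3 (-0.37, adjusted p = 0.0579) and 4 (-0.38, adjusted p = 0.0563). On water Itga3 was called lower in the knockout as well (log2 difference -0.32 ± 0.11, limma adjusted p = 0.0470). Nid1, the linker nidogen, was higher by 0.38 ± 0.12 (adjusted p = 0.0335). Its call was lost without wild-type bicarbonate replicate 1 (0.32, adjusted p = 0.0995) or 4 (0.37, adjusted p = 0.0702) and without knockout bicarbonate replicate 1 (0.39, adjusted p = 0.0506), 2 (0.38, adjusted p = 0.0684) or 4 (0.33, adjusted p = 0.1002). It was also lost with the length and GC trend removed (0.31, adjusted p = 0.0783). None of the 12 other genes high in podocytes passed, and the smallest p there was that of Vegfa, the endothelial growth factor, at 159 ± 6.21 RPKM in the knockout and 139 ± 6.19 RPKM in wild type (adjusted p = 0.104). Without wild-type bicarbonate replicate 3 the count stayed at 8 higher and 4 lower, and it was 7 in all without wild-type bicarbonate replicate 1 and 7 without knockout bicarbonate replicate 4.

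**Figure D5:**
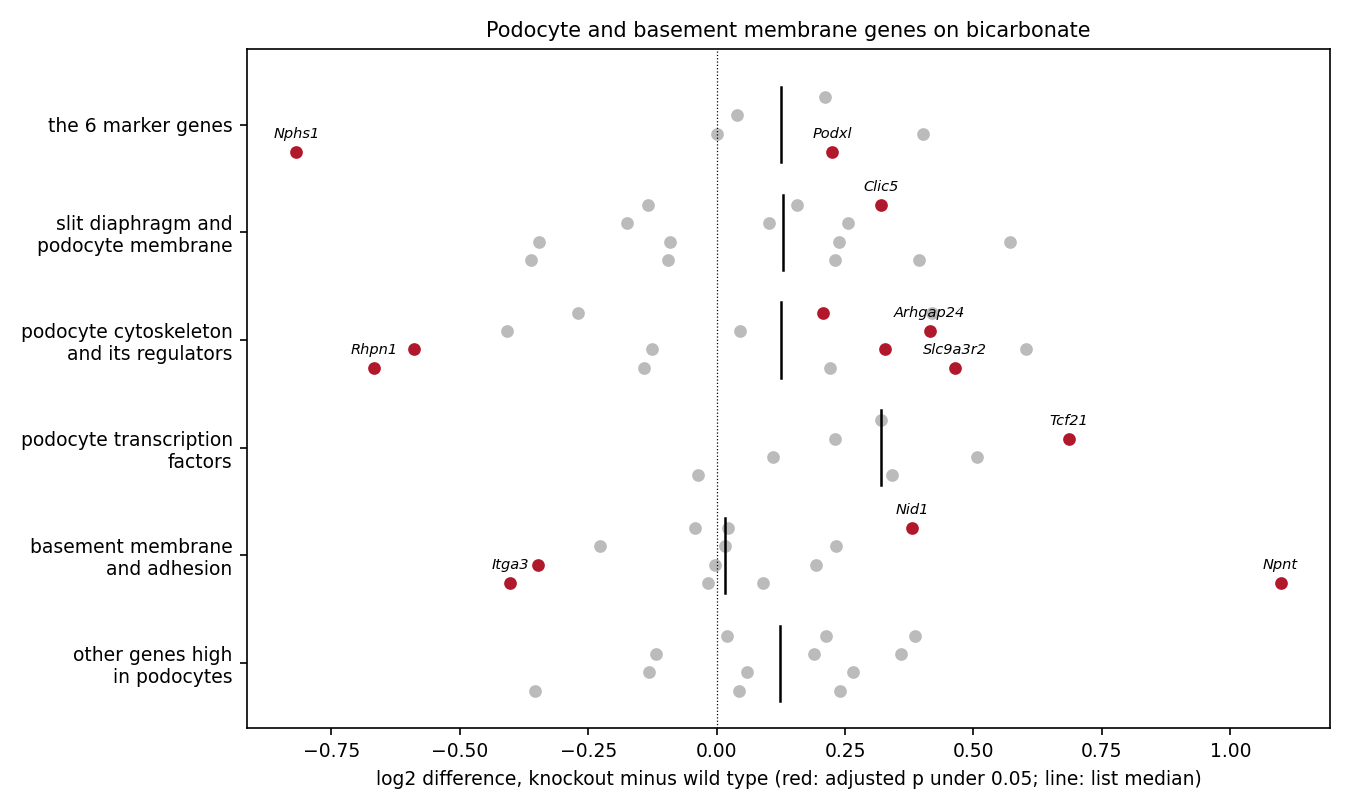
Log2 difference of knockout minus wild type on bicarbonate (horizontal axis) for the 6 markers and 60 further podocyte and basement membrane genes, 1 point per gene, by list. Red points are past an adjusted p of 0.05 and black lines are list medians, which lie between 0.02 and 0.32, while Nphs1 at -0.82 and Npnt at 1.10 mark the ends.

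On water the knockout had 5 of the 60 higher and 5 lower, 16.7% against 21.9% of all genes tested. No slit diaphragm or transcription factor gene passed, and the smallest p in those lists belonged to the adaptor gene Cd2ap (log2 difference -0.14 ± 0.08, limma adjusted p = 0.228) and to the homeodomain factor gene Lmx1b (0.44 ± 0.22, adjusted p = 0.174). Ezr, the membrane-actin linker ezrin, which proximal tubules make at high levels, was at 154 ± 7.75 RPKM in the knockout and 123 ± 3.13 RPKM in wild type (log2 difference 0.33 ± 0.06, adjusted p = 0.000851). Lama5, a laminin chain of the glomerular basement membrane, was at 25.7 ± 0.857 RPKM in the knockout and 36.6 ± 1.46 RPKM in wild type (log2 difference -0.51 ± 0.11, adjusted p = 0.00435). Nes, the intermediate filament nestin, was lower, at a log2 difference of -0.44 ± 0.11 (adjusted p = 0.0130), and the growth factor gene Bmp7 was higher by 0.35 ± 0.09 (adjusted p = 0.00881). On bicarbonate the same limma fit also called Ezr higher (0.21 ± 0.06, adjusted p = 0.0195) and Lama5 lower (-0.35 ± 0.11, adjusted p = 0.0409). There it called neither Nes (adjusted p = 0.116) nor Bmp7 (adjusted p = 0.776).

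The other named genes on water lost their call in some alternatives. The Slc9a3r2 difference was 0.38 ± 0.11 (limma adjusted p = 0.0199) and lost its call when wild-type water replicate 1 (0.0513) or 2 (0.0599) or knockout water replicate 4 (adjusted p = 0.0634) was left out. That of Cd151, a tetraspanin, was 0.25 ± 0.08 (adjusted p = 0.0282), not called without wild-type water replicate 2 or 4 or knockout water replicate 1 or 3 (adjusted p from 0.0596 to 0.0905) or with only the groups compared (0.0729). Srgap1, a GTPase regulator gene, was at 0.54 ± 0.17 (adjusted p = 0.0360), not called without wild-type water replicate 1 or 2 or knockout water replicate 1, 2 or 3 (0.0660 to 0.0954), with the replicate number as a block (0.0655) or with only the groups compared (0.0703). The peptidase gene Mme was at -0.47 ± 0.14 (adjusted p = 0.0249), not called without wild-type water replicate 2 or 3 or knockout water replicate 1 or 4 (0.0610 to 0.0803), and at -0.25 with the length and GC trend removed (adjusted p = 0.1996). The integrin-linked kinase gene Ilk was at -0.24 ± 0.08 (adjusted p = 0.0434) and was not called in 15 of 27 alternatives, 10 of them with 1 library left out, with adjusted p up to 0.137. The count of 10 was 5 without wild-type water replicate 2 and 6 without knockout water replicate 1.

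Between bicarbonate and water none of the 60 genes was called by limma in either genotype, where 0.0232% of all genes tested were called in the knockout and 0.139% in wild type. An unadjusted p under 0.05 was found for 6 of 60 in the knockout, against 7.99% of all genes, and for 7 of 60 in wild type, against 12% of all genes. The difference of responses was called for none of the 60 and for 0.0155% of all genes, with 6 of 60 at an unadjusted p under 0.05 against 8.19% of all genes. In the knockout the smallest p of each list belonged to Fat1 (log2 difference 0.40), Arhgdia (-0.16), Tcf21 (0.27), Lama5 (0.30) and Sulf1 (-0.47), with adjusted p from 0.509 to 0.693. In wild type they belonged to Ptpro (-0.30), Anln (0.73), Tcf21 (-0.31), Col4a5 (-0.28) and Mme (-0.51), with adjusted p from 0.154 to 0.473. Tcf21 averaged 10.3 ± 0.710 RPKM on bicarbonate and 8.58 ± 1.37 RPKM on water in the knockout, and 6.39 ± 0.937 RPKM on bicarbonate and 8.05 ± 1.72 RPKM on water in wild type (SD, n = 4 each). Its knockout response minus wild-type response was 0.58 ± 0.22 (adjusted p = 0.551). Those of Clic5, Arhgdia, Nid1 and Bmp7, the smallest p of the other 4 lists, were 0.27, -0.30, 0.29 and -0.31, with adjusted p from 0.462 to 0.656.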

How the data were processed

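The authors deposited RPKM values per gene, 1 column per mouse. Salmon 1.5.2 and edgeR 3.34.0, and the builds GRCm39 and mm10, are named per the submitters' processing notes with no role. The gene lengths and annotation used are not given in the sources used here. Whole reads could not be recovered, so depth and counting error are unknown. All 13430 gene IDs matched a symbol in GENCODE M21.

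Groups came from the sample titles. Genes at 0.5 RPKM or more in 4 or more libraries, 12943 in all, were tested on log2(RPKM + 0.1) with limma 3.58.1 (R 4.3.3), in 1 fit of 4 group means with trended, robust variance. Tests were two-sided, with Benjamini-Hochberg adjustment over all genes tested in a comparison and a threshold of 0.05. The scale understates changes of low genes. Pair correlations used 100000 permutations within groups. The fit was first tested on simulated data. The markers, lists and naming rule were chosen with earlier results of these data known. The rule named Insrr, all 6 markers, from each podocyte list the genes past the threshold, at most 3 by lowest p, or else the 1 gene of lowest p, and the 10 genes most like the joint pattern. Alternatives were other pseudocounts, filters, scalings, variance models, a replicate block and each library left out. Same-numbered libraries were not treated as paired in the main fit, since the labels name no pairing. Some genes of the lists are not reported by name here.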

Additional observations from a re-analysis of the deposited data

How the results depend on the processing

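The Nphs1 difference on bicarbonate kept its direction and its side of the threshold under all 27 alternatives, and that of Podxl kept its direction in 27 and its side in 21. Leaving out a water library, or changing only the filter, cannot change these log2 differences. The same holds with no trend and no robust fitting, with the replicate block and with only the groups compared. Those alternatives could change a call but not a direction. The number of genes called between bicarbonate and water in wild type was 18. It was 34 with quantile normalization (13 higher and 21 lower, against 5 and 13), 11 after removal of the length and GC trend, 5 with only the groups compared and 2 to 82 without single libraries. The number called for the difference of responses was 2. It was 1 with a pseudocount of 1 or with array weights, 0 with a pseudocount of 0.01 or a mean RPKM of at least 1, 4 with no trend and no robust fitting or after removal of the length and GC trend, and 1 to 5 without single libraries. The causes were not tested.

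With the replicate number as a block, 2 genes were called for bicarbonate in wild type, and no marker's call changed. The labels name no pairing of the numbers. Deviations from the group mean correlated at r of -0.10 to 0.10 between same-numbered libraries, over 24 pairs. Of the 16 libraries, 6 matched best with a library of their own number. These values cannot decide whether mice were paired by litter, day or batch.

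Signs of small, uncalled differences turned. With the length and GC trend removed, Synpo was at -0.060 between genotypes on water, -0.050 on bicarbonate, -0.025 for bicarbonate in the knockout and -0.035 in wild type, Plce1 was at 0.040 on water, and Cd2ap was at 0.069 on water. Plce1 was at 0.0081 on water with quantile normalization and Wt1 at -0.018 on bicarbonate with array weights. Without single libraries, the difference on water ranged from -0.23 to 0.079 for Nphs1, -0.14 to 0.018 for Plce1, -0.054 to 0.042 for Synpo and -0.021 to 0.12 for Wt1. On bicarbonate it ranged from -0.0036 to 0.068 for Synpo and -0.049 to 0.071 for Wt1. Bicarbonate in wild type ranged from -0.076 to 0.0045 for Podxl and -0.0083 to 0.068 for Synpo. The difference of responses ranged from -0.015 to 0.094 for Synpo and -0.11 to 0.022 for Wt1.

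No pair of markers was past the threshold for its correlation in any alternative run. With the length and GC trend removed, r was -0.075 for Nphs1 and Synpo, -0.043 for Podxl and Plce1 and -0.029 for Wt1 and Cdkn1c. Without single libraries, r ranged from -0.11 to 0.40 for Nphs1 and Wt1, -0.19 to 0.15 for Nphs1 and Synpo, -0.16 to 0.34 for Nphs1 and Cdkn1c, -0.0051 to 0.34 for Podxl and Synpo, -0.24 to 0.19 for Podxl and Cdkn1c, -0.080 to 0.53 for Podxl and Plce1, -0.13 to 0.25 for Wt1 and Cdkn1c and -0.32 to 0.14 for Wt1 and Plce1. Alternatives for the 60 list genes were chosen after seeing the data. Depth is unknown, so whether low genes such as Plce1 were limited by it was not tested.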

Other observations

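Markers of the cells that share the glomerulus with podocytes were read in the same libraries. Of 10 glomerular endothelial genes, none passed between the genotypes on bicarbonate by limma, where 18.4% of all genes tested were called. An unadjusted p under 0.05 was found for 3 of 10, against 31.4% of all genes. Their summed level was 379 ± 9.03 RPKM in the knockout and 385 ± 39.0 RPKM in wild type (SD, n = 4 each). On water, where 21.9% of all genes were called, 1 of the 10 passed, Plat, the tissue plasminogen activator gene, with a log2 difference of -0.64 ± 0.17 (adjusted p = 0.0166). Of 9 mesangial and juxtaglomerular genes tested, none passed on bicarbonate or on water, with 1 of 9 at an unadjusted p under 0.05 on bicarbonate and 2 of 9 on water, against 31.4% and 34.3% of all genes. Their summed level on bicarbonate was 157 ± 32.8 RPKM in the knockout and 175 ± 60.1 RPKM in wild type. Of 9 genes of the parietal epithelium, 1 was higher and 1 lower on bicarbonate, against 9.03% and 9.36% of all genes. Pax2, a nephron transcription factor gene also active in collecting ducts, had a log2 difference of 0.52 ± 0.15 (adjusted p = 0.0255), and Krt8, a keratin gene of many epithelia, one of -0.53 ± 0.10 (adjusted p = 0.00149). The summed RPKM of the 6 podocyte markers, most of it Podxl, was 106 ± 4.03 in the knockout on bicarbonate, 98.6 ± 5.89 in the knockout on water, 98.5 ± 5.05 in wild type on bicarbonate and 98.2 ± 4.32 in wild type on water.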
